A study of Mus musculus with 6 samples.

Results

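The genes described here belong to bone: matrix proteins, regulators of osteoblasts and osteocytes, and enzymes of osteoclasts, measured in olfactory epithelium of mice with a closed nostril. They were chosen by name with earlier results of these data known, so counts of them are descriptions and not tests. They are Dmp1, Ctsk, Acp5, Ibsp, Spp1, Sost, Mepe, Phex, Sparc and Sp7. Each was read from the probe set whose annotation gives that symbol alone. Of the 10 genes 9 had such a probe set, out of 14860 genes and 23332 probe sets in all. Each of the 9 had 1 probe set, and Spp1, which encodes osteopontin, was not analysed here.

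Total RNA came from 3 C57Bl/6 mice, 5 days after unilateral naris occlusion, and was hybridised to 6 Affymetrix exon arrays. The 3 arrays of the occluded side held epithelium ipsilateral to the closed nostril, where odour stimulation is lowered. The 3 arrays of the contralateral side held epithelium from the open side, where stimulation is raised per the labels, so that side was not an untreated reference. All arrays came from animals with an occlusion, and the labels give no age and do not say which arrays share a mouse, so each p-value reflects only how much these arrays differ among themselves, which may be technical.

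Bone is laid down by osteoblasts, which secrete collagen and acidic proteins that bind calcium and integrins, and it is dissolved by osteoclasts, which acidify the matrix and digest it with proteases. Osteocytes are former osteoblasts enclosed in the matrix, and they control phosphate handling and the activity of the other cells. In the nose the olfactory mucosa lies on thin turbinate bones, so a dissected piece of epithelium can carry bone with it; how much bone each piece held is not recorded in the labels.

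The matrix genes Dmp1, Ibsp and Mepe are neighbours on mouse chromosome 5 in the order Dspp, Dmp1, Ibsp, Mepe, Spp1, and they encode related acidic proteins of mineralised tissue. Their promoters are shown because the genes lie side by side and are read together in the results. The sequences are from RefSeq (build GRCm38.p6), run 5′ to 3′, and cover the 250 bases before each annotated start; Dmp1 has 2 annotated starts. Capitals mark the core letters bound by RUNX factors, the family of the osteoblast regulator RUNX2, as TGTGGT or, on the other strand, ACCACA.

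Dmp1, first start, chr5:104197325-104197574, plus strand: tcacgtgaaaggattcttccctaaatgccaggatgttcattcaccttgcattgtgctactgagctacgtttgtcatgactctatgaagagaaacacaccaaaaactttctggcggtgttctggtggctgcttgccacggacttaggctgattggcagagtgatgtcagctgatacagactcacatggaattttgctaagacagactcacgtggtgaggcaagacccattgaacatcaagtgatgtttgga
Dmp1, second start, chr5:104202367-104202616, plus strand: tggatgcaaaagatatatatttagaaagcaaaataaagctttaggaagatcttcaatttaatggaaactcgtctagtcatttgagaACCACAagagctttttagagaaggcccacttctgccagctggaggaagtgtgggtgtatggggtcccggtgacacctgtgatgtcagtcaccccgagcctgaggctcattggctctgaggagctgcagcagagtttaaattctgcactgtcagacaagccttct
Ibsp, chr5:104299037-104299286, plus strand: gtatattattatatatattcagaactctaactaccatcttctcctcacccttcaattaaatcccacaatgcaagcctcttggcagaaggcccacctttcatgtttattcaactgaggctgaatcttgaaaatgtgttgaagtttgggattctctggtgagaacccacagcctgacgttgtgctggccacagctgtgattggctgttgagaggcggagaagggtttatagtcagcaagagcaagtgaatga
Mepe, chr5:104325079-104325328, plus strand: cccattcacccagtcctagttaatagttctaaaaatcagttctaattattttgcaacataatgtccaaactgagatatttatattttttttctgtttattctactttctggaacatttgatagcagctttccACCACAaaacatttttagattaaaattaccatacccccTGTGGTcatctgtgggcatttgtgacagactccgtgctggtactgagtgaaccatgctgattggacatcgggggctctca

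Mepe held the RUNX letters at 2 places, beginning 118 and 80 bases before the start, and the second Dmp1 start held them at 1 place, 164 bases before it. The first Dmp1 start and Ibsp had no match in this window. Over the bone genes 3 of 13 windows held the letters, the other being a window of Spp1, against 14.0% of the 32851 windows of all promoters of the same length. The TATA box letters TATAAA, searched on both strands, were present in 3 of the 13 windows, those of Ibsp and Mepe and a window of Spp1, and in 12.4% of all windows, and they did not overlap the RUNX letters. Promoter windows were found for 9 of the 10 genes, Sp7 being unmatched.

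Before the bone genes, the tissue label and the arrays were checked. The olfactory epithelium markers Omp, the marker protein of mature sensory neurons, and Cyp2g1, a cytochrome P450 of supporting cells, were strongly expressed, with mean log2 levels over 6 arrays of 13.61 and 13.43. Occluded replicate 1 stood apart from the other arrays: its correlation with each of them across probe sets lay between 0.977 and 0.983, and it was the highest of the 6 arrays for 46.0% of all probe sets. Array medians ran from 7.94 to 8.12 in log2 units, and no 2 arrays held identical values.

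All 9 bone genes had a higher mean on the occluded side, where 64.8% of all probe sets and 70.4% of those with 1 gene symbol did. Their log2 differences, occluded minus contralateral, ran from 0.10 for Sost to 0.71 for Dmp1, with a median of 0.41, against a median of 0.06 over all probe sets. None passed the test: limma, adjusted by Benjamini-Hochberg across the array, gave adjusted p-values of 0.823 to 0.895 for them and called 0 of 23332 probe sets, or 0.0%. At an unadjusted p under 0.05 by limma there were 5 of the 9, Dmp1, Mepe, Ctsk, Sparc and Phex, all higher on the occluded side, against 3.81% of all probe sets in that direction and 5.28% in either. That count of 5 was 2 without occluded replicate 1, occluded replicate 2, contralateral replicate 1 or contralateral replicate 2. It was 8 without occluded replicate 3, 7 without contralateral replicate 3 and 4 with the replicate number as a block. With the lowest 25% of probe sets left out it was 6, and with single-symbol probe sets only or an eBayes trend it was 7. Over all 23332 probe sets such calls, in either direction, ran from 778 without contralateral replicate 2 to 1704 without occluded replicate 2. With all arrays they were 1233. The 2 smaller sets of probe sets had 1028 of 17499 and 904 of 14996, of which 794 and 743 were higher on the occluded side. In whole tissue, more bone cells and more RNA per bone cell cannot be told apart.

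Dmp1, dentin matrix protein 1, is made by osteocytes and guides mineral deposition and phosphate balance. Its log2 levels were 9.75, 9.36 and 9.004 on occluded arrays 1, 2 and 3, and 8.84, 8.46 and 8.68 on contralateral arrays 1, 2 and 3. Every occluded array lay above every contralateral array, with a gap of 0.16 between the nearest arrays of the 2 sides. The means were 9.37 ± 0.37 (SD, n = 3) and 8.66 ± 0.19 (SD, n = 3), a 1.64-fold higher level on the occluded side with a 95% interval of 1.17 to 2.28. Its difference of 0.71 (SE 0.20) was larger than that of 99.2% of all probe sets, and its unadjusted p by limma was 0.0103, with an adjusted p of 0.823.

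Mepe, matrix extracellular phosphoglycoprotein, is an osteocyte product that restrains mineralisation. It read 7.59, 7.25 and 7.09 on occluded arrays 1 to 3 and 6.59, 6.69 and 6.97 on contralateral arrays 1 to 3, in log2 units. Here too the sides did not overlap. The log2 difference was 0.56 (SE 0.16), or 1.48-fold (95% interval 1.13 to 1.93), with an unadjusted limma p of 0.0115. Mepe was dim, with a mean level of 7.03, below the 90th percentile (7.22) of 26 reference genes not expected in nasal tissue. How much of its signal was background was not measured, so the size of its difference is uncertain beyond its SE.

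Ibsp, bone sialoprotein, is an integrin-binding protein that seeds mineral crystals. Its log2 levels were 12.91, 12.82 and 12.61 on the occluded arrays 1 to 3, and 12.34, 12.53 and 12.65 on the contralateral arrays 1 to 3. Occluded replicate 3 lay just below contralateral replicate 3, so the sides overlapped. The log2 difference of Ibsp was 0.27 (SE 0.12), with a 95% interval of -0.02 to 0.57 that includes 0, and was thus smaller than those of its chromosome neighbours Dmp1 and Mepe; the difference between these genes was not tested.

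On the same stretch of chromosome 5, Dspp, a tooth dentin protein encoded next to Dmp1, was dim. Its mean level of 6.34 was below the 90th percentile (7.22) of the reference genes, and it had a log2 difference of 0.10 (SE 0.10). Sparcl1, a relative of Sparc encoded on the far side of Dspp, had one of 0.38 (SE 0.14). Its highest array was occluded replicate 2, at 10.45, and not occluded replicate 1, at 10.04, which sets its pattern apart from that of Dmp1, Ibsp and Mepe.

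Sparc, osteonectin, is a collagen-binding glycoprotein of bone that fibroblasts and endothelium also make. It was measured at 13.16, 12.97 and 12.76 on occluded arrays 1 to 3 and at 12.50, 12.42 and 12.75 on contralateral arrays 1 to 3. The sides did not overlap, but only by 0.0092 between occluded replicate 3 and contralateral replicate 3. Its log2 difference was 0.41 (SE 0.14), or 1.33-fold (95% interval 1.05 to 1.67).

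Sp7, osterix, is the transcription factor that commits cells to the osteoblast lineage. Its occluded arrays 1 to 3 read 10.21, 9.73 and 9.50 and its contralateral arrays 1 to 3 read 9.26, 9.42 and 9.57. Occluded replicate 1 stood above the rest, and occluded replicate 3 lay inside the contralateral range. The log2 difference of 0.40 (SE 0.19) had a 95% interval of -0.06 to 0.86, and without occluded replicate 1 it was 0.20.

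Phex, an osteoblast and osteocyte endopeptidase whose loss causes phosphate wasting, read 11.15, 11.10 and 10.58 on occluded arrays 1 to 3 against 10.22, 10.40 and 10.64 on contralateral arrays 1 to 3. Occluded replicates 1 and 2 lay close together and above every contralateral array, while occluded replicate 3 fell below contralateral replicate 3. The log2 difference was 0.53 (SE 0.19), or 1.44-fold (95% interval 1.06 to 1.96).

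Sost, sclerostin, is the osteocyte inhibitor of Wnt signalling and bone formation, and it was the member with the smallest difference. Its levels were 7.74, 7.35 and 7.35 on the occluded side and 7.27, 7.23 and 7.66 on the contralateral side, for replicates 1 to 3 in turn. The sides overlapped, since contralateral replicate 3 was higher than occluded replicates 2 and 3. Like Mepe, Sost was dim, with a mean level of 7.43, between the 90th percentile (7.22) and the highest level (8.27) of the reference genes. The log2 difference of Sost was 0.10 (SE 0.16), with a 95% interval of -0.29 to 0.49, and it turned to -0.034 without occluded replicate 1.

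Both osteoclast enzymes were bright. Ctsk, cathepsin K, the protease with which osteoclasts digest bone collagen, read 12.68, 12.43 and 12.16 on occluded arrays 1 to 3 and 11.84, 11.71 and 12.18 on contralateral arrays 1 to 3. The sides overlapped, occluded replicate 3 minus contralateral replicate 3 being -0.03. Its log2 difference was 0.51 (SE 0.18), a 1.42-fold higher level with a 95% interval of 1.06 to 1.90. Acp5, the tartrate-resistant acid phosphatase used to stain osteoclasts, read 12.76, 12.48 and 12.16 against 11.99, 11.94 and 12.29. Again occluded replicate 3 lay below contralateral replicate 3, and the log2 difference of 0.40 (SE 0.18) had a 95% interval of -0.02 to 0.81.

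**Figure D1:**
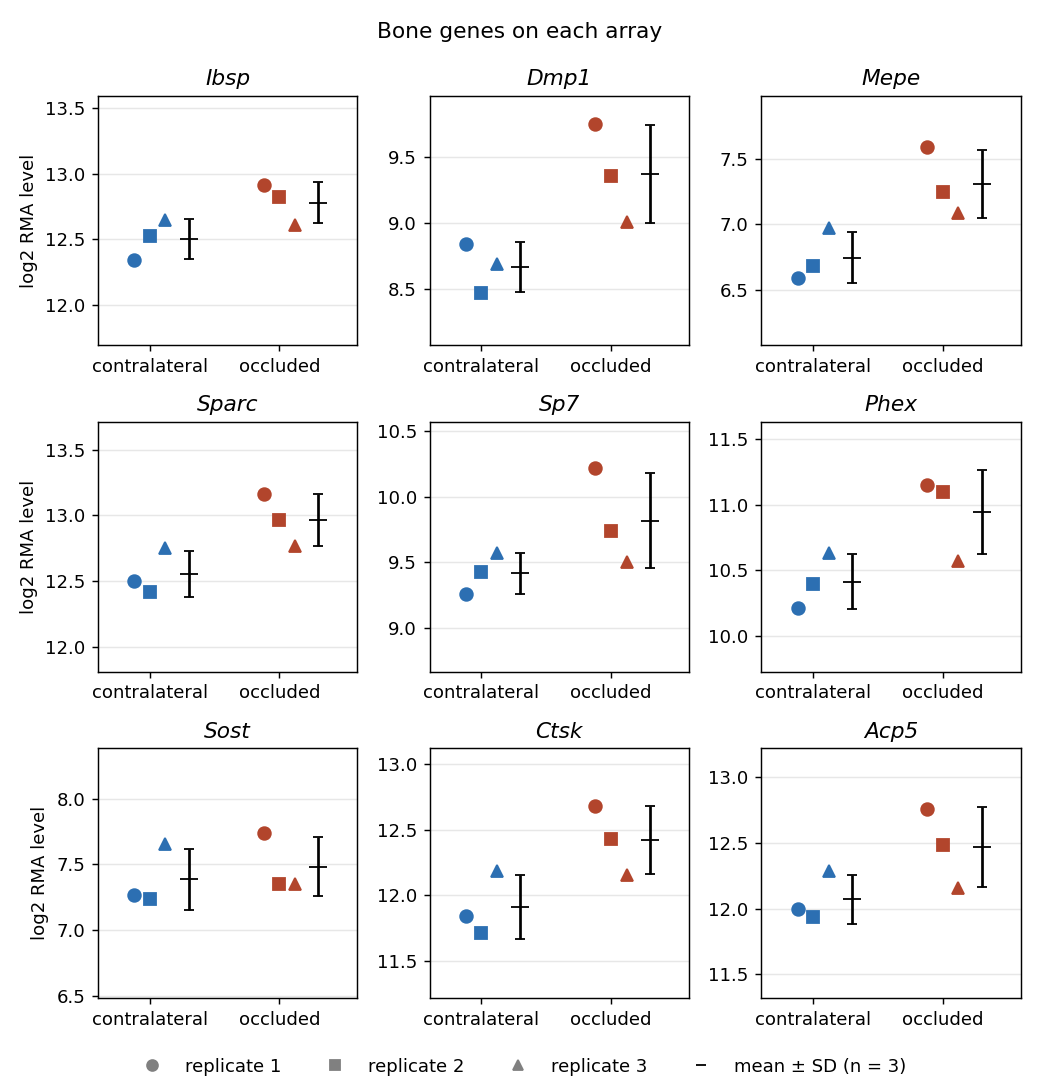
Log2 RMA level of each of the 9 measured bone genes on each array, by side, with the marker shape giving the replicate number and the bar the mean ± SD of 3 arrays. Every panel spans the same range of log2 units; occluded replicate 1 is the highest point in all 9 panels, and the triangles of the 2 sides lie close together in most of them.

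**Figure D2:**
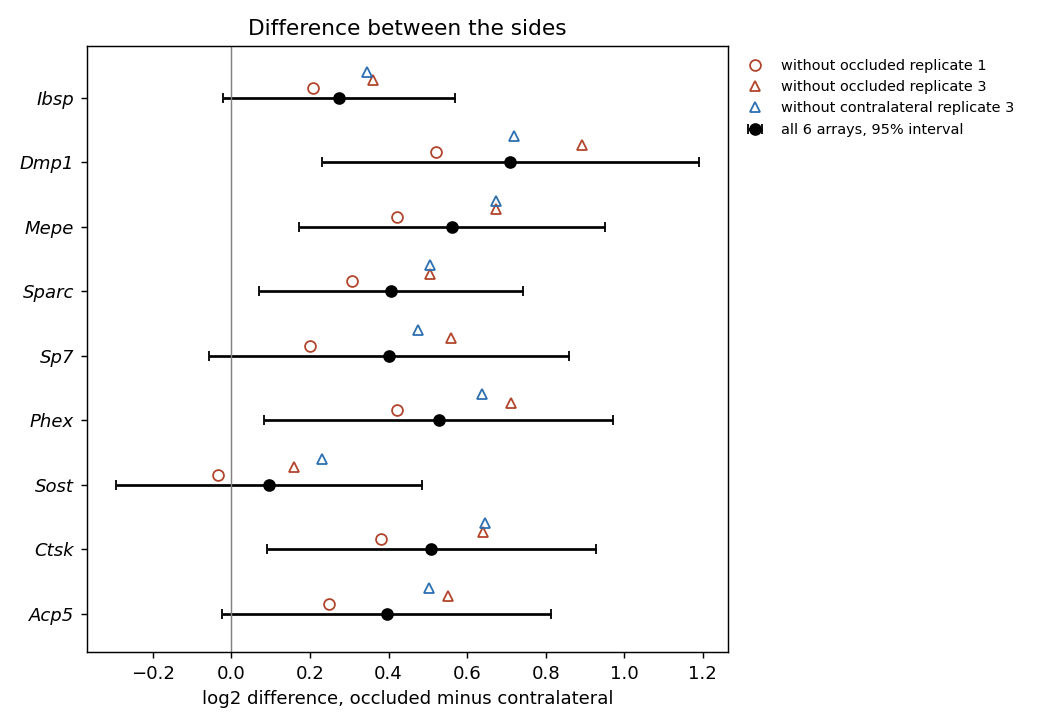
Log2 difference, occluded minus contralateral, of each bone gene with its 95% interval from limma on all 6 arrays, and open symbols for the value without 1 array. The differences run from 0.10 for Sost to 0.71 for Dmp1, and the value without occluded replicate 1 is the lowest of those drawn for every gene.

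Read array by array, the 9 genes ranked the arrays much alike. Occluded replicate 1 was the highest of the 6 arrays for all 9, as it was for 46.0% of all probe sets. The mean over the 9 genes, centred over the 6 arrays, was 0.48 for occluded replicate 1, 0.21 for occluded replicate 2 and -0.05 for occluded replicate 3, against -0.31, -0.31 and -0.03 for contralateral replicates 1, 2 and 3. Among the occluded arrays replicate 3 was the lowest in 8 of the 9, and among the contralateral arrays replicate 3 was the highest in 8 of the 9. Osteoblast, osteocyte and osteoclast genes thus shared most of the order. The shares of all probe sets with these orders were not computed, so the counts are not read as particular to bone genes. The SD of the mean over the 9 genes within a side was 0.22.

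The overlap between the sides came from the arrays with replicate number 3. Occluded replicates 1 and 2 lay above all contralateral arrays in 8 of the 9 genes, Sost being the exception, where 13.7% of all probe sets did so. All occluded arrays lay above contralateral replicates 1 and 2 in 9 of 9, where 21.5% of all probe sets did so. With all 6 arrays the sides did not overlap in 3 of the 9, Dmp1, Mepe and Sparc, all higher on the occluded side, against 7.49% of all probe sets in that direction and 10.7% in either. Occluded replicate 3 lay below contralateral replicate 3 in 6 of the 9 genes, with the difference between these 2 arrays running from -0.30 for Sost to 0.32 for Dmp1.

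Without occluded replicate 1, the array that stood apart, 8 of the 9 genes still had a difference above 0, with a median of 0.31 against 0.02 over all probe sets. The difference of Dmp1 was then 0.52, of Mepe and Phex 0.42, of Ctsk 0.38 and of Acp5 0.25. When the 6 arrays were instead brought to equal medians, the median of the bone genes was 0.33 and that of all probe sets -0.02.

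Some genes departed from the shared pattern. After each array's mean over the 9 genes was subtracted, Dmp1 stood at 0.14 on the occluded side and -0.14 on the contralateral side, the widest spread upward, although its sides then overlapped because of contralateral replicate 1. Sost went furthest the other way, at -0.17 and 0.17, with no overlap between the sides. The sides did not overlap either for Ibsp, at -0.08 and 0.08, or for Mepe, at 0.07 and -0.07. Sost was dim, at a mean level of 7.43, and how much of its signal was background was not measured. These relative values sum to 0 on each array and were not tested.

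The 5 other genes whose centred values lay nearest to the mean profile of the bone genes, by root mean square distance over 6 arrays among 14851 genes, were Fxyd1, Pter, Gmppb, Mmp13 and Gpx1, at distances of 0.04 to 0.05 log2 units. Mmp13, the collagenase of osteoblasts and hypertrophic cartilage, read 12.80, 12.46 and 12.27 on the occluded arrays 1 to 3 and 11.99, 12.01 and 12.38 on the contralateral arrays 1 to 3. Its log2 difference was 0.38 (SE 0.17). Gpx1, a glutathione peroxidase, had a log2 difference of 0.45 (SE 0.15). Among the bone genes themselves the root mean square distance to that mean profile ran from 0.04 for Acp5 to 0.20 for Dmp1.

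**Figure D3:**
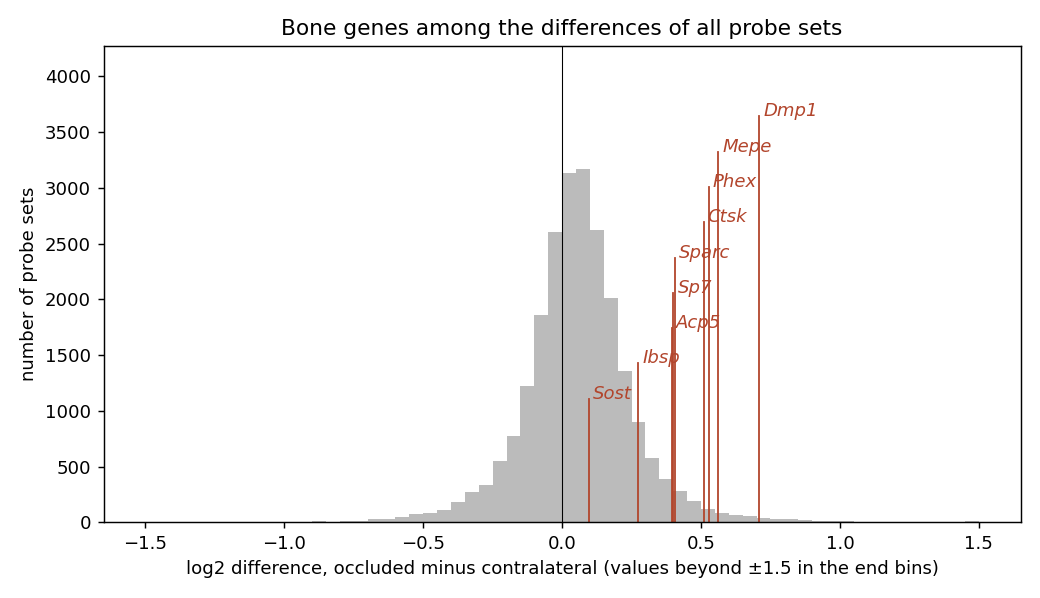
Histogram of the log2 difference, occluded minus contralateral, of all 23332 probe sets in bins of 0.05, with a line at the value of each measured bone gene (line height has no meaning). The bulk of the probe sets lies near the median of 0.06, and all bone genes except Sost and Ibsp lie between 0.40 and 0.71.

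All 19 measured genes of a list for bone formation and mineralisation had a difference above 0, with a median of 0.18 that was 0.11 without occluded replicate 1 and 0.28 without occluded replicate 3. None passed the adjusted test, and 2 had an unadjusted p under 0.05 by limma and were higher on the occluded side, where 3.81% of all probe sets were. These were Vdr, the vitamin D receptor, at 0.62 (SE 0.23), and Slc13a5, a citrate transporter of bone cells, at 0.49 (SE 0.20). Vdr read 9.61, 8.98 and 8.70 on occluded arrays 1 to 3 and 8.39, 8.37 and 8.67 on contralateral arrays 1 to 3, with no overlap between the sides. Alpl, the alkaline phosphatase that frees phosphate for mineral, was at 0.32 (SE 0.19). The collagen I genes Col1a1 and Col1a2, the main fibre of bone and also of fibroblasts, were at 0.13 (SE 0.10) and 0.18 (SE 0.10), with mean levels of 13.60 and 13.53. Runx2 and Bglap were not analysed here.

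Among 7 measured osteocyte and phosphate genes all lay above 0, with a median of 0.09 that was 0.24 without occluded replicate 2, 0.19 without occluded replicate 3 and 0.16 without contralateral replicate 3. Wif1, a secreted Wnt inhibitor, was at 0.63 (SE 0.20) and its sides did not overlap. Fgf23, the phosphate hormone of osteocytes, was at 0.05 (SE 0.11) and Sostdc1, a relative of sclerostin, at 0.07 (SE 0.17). Fgf23 and Sostdc1 had mean levels of 7.51 and 7.68, below the highest reference gene not expected in nasal tissue, 8.27.

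Of 16 measured osteoclast genes 15 lay above 0, with a median of 0.22, and 0 had an unadjusted p under 0.05 by limma; none passed the adjusted test. Oscar, an activating receptor of osteoclasts, was at 0.47 (SE 0.23), Dcstamp, which drives their fusion, at 0.51 (SE 0.30), Atp6v0d2, a proton pump subunit, at 0.44 (SE 0.24) and the gelatinase Mmp9 at 0.44 (SE 0.23). Dcstamp was highest on occluded replicate 1, at 8.95, and its mean level of 8.05 was below the highest reference gene, 8.27. Smaller differences were those of Traf6 at 0.06 (SE 0.13), Plekhm1 at 0.10 (SE 0.12), Clcn7 at 0.15 (SE 0.14) and Nfatc1 at 0.17 (SE 0.14). Calcr, the calcitonin receptor, was at -0.04 (SE 0.08), but its mean level of 6.29 was below the 90th percentile (7.22) of the reference genes. For Mmp9 the arrays read 12.61, 11.98 and 11.67 on the occluded side and 11.62, 11.55 and 11.79 on the contralateral side, so that occluded replicate 1 was far above the rest. Car2, the carbonic anhydrase with which osteoclasts make acid, was at 0.30 (SE 0.13), and its sides did not overlap. The median of the osteoclast list was 0.10 without occluded replicate 1 and 0.14 without contralateral replicate 2.

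Of the 7 genes for signals that control osteoclasts, 6 lay above 0, with a median of 0.16 that was 0.04 without occluded replicate 1 and 0.27 without occluded replicate 2. Tnfsf11, the ligand RANKL that starts osteoclast formation, was at 0.08 (SE 0.12), its receptor Tnfrsf11a, RANK, at 0.14 (SE 0.09), and its decoy receptor Tnfrsf11b, osteoprotegerin, at 0.40 (SE 0.13), with no overlap between the sides for Tnfrsf11b. The unadjusted limma p of Tnfrsf11b was 0.0190 and its adjusted p 0.823. Tnfrsf11a was dim, with a mean level of 7.29 that was below the highest reference gene, 8.27. Csf1, the growth factor of the lineage, was at 0.22 (SE 0.17) and Sema3a, a semaphorin that protects bone, at -0.20 (SE 0.12). The sides of Sema3a did not overlap, and it was lower on the occluded side.

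Receptors of the matrix proteins were measured by 8 genes, 7 of them above 0, with a median of 0.28 that was 0.10 without occluded replicate 1. Itgb3, the integrin chain of osteoclasts that binds osteopontin and bone sialoprotein, was at 0.45 (SE 0.23), and Cd44, a receptor of osteopontin and hyaluronan, at 0.26 (SE 0.10). The 11 other cathepsins had a median of 0.23 with 10 above 0, a median that was 0.10 without occluded replicate 1, and Ctso, cathepsin O, was at 0.27 (SE 0.10). The 7 relatives of Sparc had a median of 0.08, all above 0, and the median was 0.05 without occluded replicate 1 and 0.15 without occluded replicate 2.

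Markers of other cell types lay higher on some of the same arrays as the bone genes; no marker is listed at 0 on this scale. Fibroblast markers were above 0 in 9 of 10 genes, with a median difference of 0.25 and a mean log2 level of 9.13 to 9.34 on the occluded and 8.91 to 9.13 on the contralateral arrays. Macrophage markers were above 0 in 16 of 16, with a median of 0.30 and mean levels of 7.72 to 8.15 against 7.47 to 7.67. Csf1r, the receptor of Csf1 on both macrophages and osteoclasts, was at 0.46 (SE 0.23). Endothelial markers were above 0 in 11 of 11, with a median of 0.30 and mean levels of 7.91 to 8.42 against 7.73 to 7.92. Cartilage genes were above 0 in 12 of 14, with a median of 0.22 that was 0.03 without occluded replicate 1, and mean levels of 7.72 to 8.33 against 7.62 to 7.76. Without occluded replicate 1 the medians were 0.12 for fibroblasts, 0.11 for macrophages, with 14 of 16 above 0, and 0.16 for endothelium. Without contralateral replicate 2 that of macrophages was 0.18, and without occluded replicate 3 that of cartilage was 0.33. The part of these tissues in the bone gene differences was not tested.

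Occluded replicate 1 was high for these lists too. Its centred mean was 0.52 for cartilage, 0.42 for endothelium, 0.41 for macrophages and 0.23 for fibroblasts, beside 0.48 for the bone genes. On occluded replicate 2 the 9 bone genes were at 0.21, the bone formation list at 0.08 and the osteoclast list at 0.03, while ciliated cell genes were at 0.20, cartilage at -0.08, endothelium at -0.08, macrophages at -0.02 and fibroblasts at 0.05. On the same array the erythroid and neutrophil lists were at their highest, with 0.58 for the 5 measured erythroid genes and 0.28 for the 13 measured neutrophil and marrow granulocyte genes, and both were close to 0 on occluded replicate 1, at -0.09 and -0.02. Alas2, the haem synthesis enzyme of red cell precursors, read 9.13, 10.06 and 9.48 on occluded arrays 1 to 3 and 8.50, 8.94 and 9.15 on contralateral arrays 1 to 3. Neutrophil genes were above 0 in 10 of 13, with a median of 0.25 and mean levels of 7.11 to 7.41 against 6.96 to 7.05, and erythroid genes in 5 of 5, with a median of 0.40 and mean levels of 6.87 to 7.54 against 6.66 to 6.86. Of these markers 10 of the 13 neutrophil and 3 of the 5 erythroid genes had a mean level above the median of the reference genes not expected in nasal tissue, 6.01. By definition 13 of the 26 reference genes also lie above that median, so passing it does not show that a gene is expressed. Genes of B cell precursors, with 4 measured, were above 0 in 2, with a median of -0.01 and mean levels of 6.22 to 6.61 against 6.20 to 6.59, and their centred mean was 0.25 on occluded replicate 1 and -0.14 on occluded replicate 2. Without occluded replicate 1 the median was 0.64 for erythroid genes and -0.15 for B cell genes, and without occluded replicate 2 it was 0.10 for erythroid and 0.15 for neutrophil genes. The B cell median was -0.06 without contralateral replicate 1 and -0.07 without contralateral replicate 2, and it was above 0, at 0.05 to 0.11, without occluded replicate 2, occluded replicate 3 or contralateral replicate 3.

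Dmp1, Ibsp, Mepe and Phex are also expressed in teeth, whose roots lie near the nasal cavity. Tooth genes had a median difference of 0.06 over 6 measured genes, 5 of them above 0, with mean levels of 5.74 to 5.82 against 5.67 to 5.75. Only Dspp and Klk4 of the 6 had a mean level above the reference median of 6.01. Dspp, at 6.34, lay below the 90th percentile of the reference genes, 7.22. Skeletal muscle genes were above 0 in 5 of 7, with a median of 0.05 and mean levels of 6.76 to 6.96 against 6.77 to 6.89. Among cells of the epithelium itself, sensory neuron genes were above 0 in 8 of 9, with a median of 0.17 and mean levels of 11.37 to 11.51 against 11.22 to 11.32, supporting and basal cell genes in 4 of 6, with a median of 0.04 and mean levels of 9.99 to 10.28 against 9.97 to 10.23, and ciliated cell genes in 6 of 7, with a median of 0.27 and mean levels of 8.72 to 8.91 against 8.45 to 8.90. Without occluded replicate 1 the median was 0.02 for muscle and -0.07 for supporting and basal cells; these last were at -0.03 without contralateral replicate 2, 0.17 without occluded replicate 2, 0.02 without occluded replicate 3 and 0.12 without contralateral replicate 3. The muscle median was 0.03 without occluded replicate 2 and 0.10 to 0.11 without occluded or contralateral replicate 3, and that of tooth genes ran from 0.02 without contralateral replicate 1 to 0.09 without occluded replicate 2, with 0.03 without occluded replicate 3. The ciliated cell median was 0.17 without contralateral replicate 1, 0.16 without contralateral replicate 2 and 0.41 without contralateral replicate 3. The 26 reference genes not expected in nasal tissue were above 0 in 9, with a median of -0.02.

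**Figure D4:**
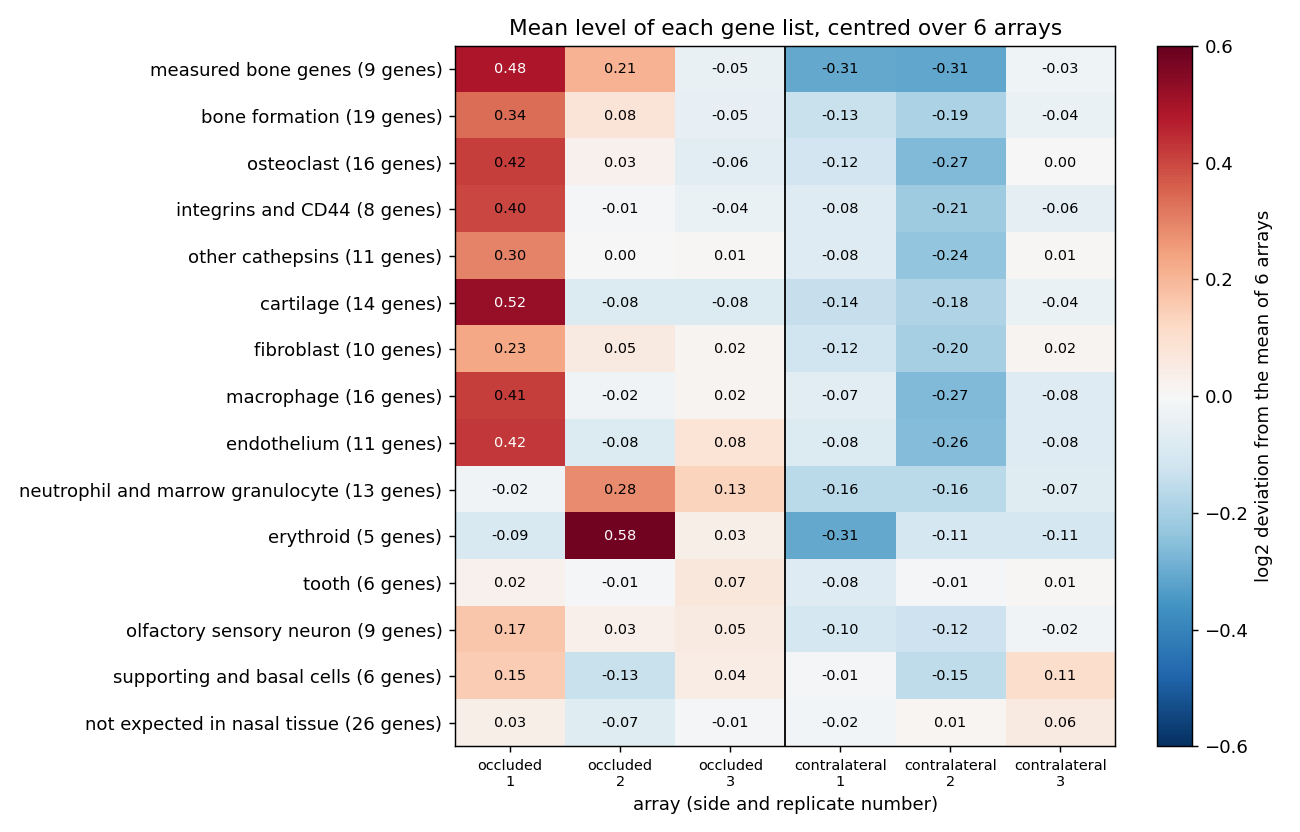
Mean log2 level of each gene list on each array, centred over the 6 arrays, with the number of measured genes in brackets; red is above and blue below the mean of the arrays. The bone genes run from 0.48 on occluded replicate 1 to -0.31 on contralateral replicates 1 and 2. On occluded replicate 2 they stand at 0.21, the bone formation list at 0.08 and the osteoclast list at 0.03. On that array cartilage, macrophage and endothelial genes stand between -0.08 and -0.02, neutrophil genes at 0.28 and erythroid genes at 0.58.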

How the data were processed

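The authors deposited log2 values, which per the labels are RMA estimates from Expression Console (core-gene analysis; version not given in the sources used here). The log base was read off the span of the values. As a method, RMA makes probe distributions alike across arrays, which can shrink differences shared by many genes. Titles in the labels place 3 arrays on each side. Gene names follow the array's platform annotation, in which 14996 probe sets carried 1 symbol, 1019 several and 7317 none. Where a gene had several probe sets, the brightest on average was used.

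Differences between the sides come from limma 3.58.1 under R 4.3.3 (lmFit, then eBayes, two-sided, without a replicate block) over all 23332 probe sets, with Benjamini-Hochberg adjustment and a threshold of 0.05. With 3 arrays a side, the smallest two-sided p of an exact permutation test is 0.1, and none was run. The number of arrays limits the precision. On simulated data, over 20 runs with 200 changed probe sets, the fit recovered on average 68.0% of those changed 2-fold and 92.2% of those changed 4-fold, with 8.4 false calls. The simulated noise was independent between probe sets and arrays, without shifts shared across an array. The bone genes differed less, from 1.07-fold for Sost to 1.64-fold for Dmp1. Changes of that size were not simulated, so these rates do not apply to the bone genes.

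The members and lists were chosen with earlier results of these data known. Genes named were drawn from the members, the 3 with the smallest p of each list, landmarks, and the 5 nearest profiles, and not every gene so drawn is printed. Dcstamp, Atp6v0d2, Calcr, Traf6, Plekhm1, Clcn7, Nfatc1, Fgf23, Sostdc1 and Klk4 were added after their values had been seen. Alternatives were a replicate block, dropping the arrays in turn, 3 rescalings, a filter on the lowest 25% of probe sets, single-symbol probe sets only, eBayes with a trend or robust, and the mean over a gene's probe sets. List medians without each array were added after the data had been seen. Python 3.11.15 was used for lists and figures.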

Additional observations from a re-analysis of the deposited data

How the results depend on the processing

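Leaving out each array in turn gave 8 to 9 bone genes above 0, where 55.3% to 66.3% of all probe sets were. The median difference was 0.31 to 0.56, and 3 to 9 genes had sides that did not overlap. The count not overlapping was 3 without occluded replicate 1 or 2 or contralateral replicate 1 or 2. In these runs 19.0%, 27.2%, 17.1% and 16.2% of all probe sets, in turn, did not overlap in either direction. It was 8 without occluded replicate 3 and 9 without contralateral replicate 3, where 20.1% and 28.9% of all probe sets did not overlap in either direction. Fewer arrays overlap less often. The number of probe sets past the threshold lay between 0 and 1 when an array was left out, the 1 being an unnamed probe set without contralateral replicate 2. When probe sets without a single gene symbol were left out there was 1 call, S100a5, which was lower on the occluded side. The difference of Sost reversed to -0.034 without occluded replicate 1 and was at most 0.23, without contralateral replicate 3; without occluded replicate 1 that of Sp7 went to 0.20 and of Acp5 to 0.25. The cause was not tested. The other scalings kept all 9 genes above 0, with medians of 0.33, 0.36 and 0.39 for median centring, quantile normalization and cyclic loess. The sides did not overlap in 2, 4 and 4 genes, where 13.2%, 11.6% and 12.2% of all probe sets did not overlap in either direction. Centring turned the unadjusted calls over all probe sets from 890 higher and 343 lower to 510 higher and 873 lower, quantile normalization to 677 and 622, and cyclic loess to 800 and 535. No bone gene passed the adjusted test under any alternative run, the smallest adjusted p being 0.592 without occluded replicate 2. Deviations of same-numbered arrays from the means of their sides had correlations of 0.0095, 0.17 and -0.04 for replicates 1, 2 and 3. The best match of occluded replicates 2 and 3 was contralateral replicate 2, and that of occluded replicate 1 was contralateral replicate 3. With 3 arrays a side this cannot show whether same-numbered arrays share a mouse. As the labels do not say, the numbers were not taken as pairs. With the replicate block 0 probe sets were called, the median was 0.41 and 3 genes did not overlap. Each bone gene had 1 probe set, so averaging probe sets changed nothing.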
